A study of Mus musculus with 84 samples.

Results

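The genes described here are developmental transcription factors of the Hox, Sox, Fox, Pax, Tbx, Gata, Klf, Lhx, sine oculis (Six3 and relatives), Dlx, Msx, Twist, Snai and Tead families. A gene entered when a clone of the 15k mouse cDNA array carried a single gene symbol made of such a family name and its letter or number, and clones of a gene were averaged. This gave 56 genes, represented by 87 of the 15360 clones, out of 7766 genes with a clone of a single symbol. The Fox family had 13 genes, Hox 11, Klf 9, Sox 8, Gata 4, Tbx 4 and Tead 2, whereas Dlx5, Msx2, Pax7, Snai1 and Twist1 were the only genes of their families. No Lhx gene and no relative of Six3 had a clone of its own. A further 10 clones carried a family symbol together with that of another gene and were left out, and Six3, Foxm1 and Pax6 had clones of that kind only.

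These proteins bind DNA through conserved domains (the homeodomain of Hox, Dlx and Msx, the HMG box of Sox, the forkhead domain of Fox, the T-box of Tbx and zinc fingers of Gata, Klf and Snai), and they set the identity of cells and segments in the embryo. Several have known roles in the mammary gland. Gata3 maintains luminal cells, Sox9 marks luminal progenitors and other progenitor cells, Tbx3 is needed for the mammary bud, and Twist1 and Snai1 are known for driving the change from epithelium to mesenchyme. Tead proteins carry the transcriptional output of the Hippo pathway through the coactivators Yap1 and Wwtr1.

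Each array compared sample RNA, labelled with Cy5, with a single preparation of reference RNA from several mouse organs, labelled with Cy3, so a log2 ratio is the level of a gene in a sample relative to that reference. Ratios of different genes are not on a common scale, and all statements below compare samples within a gene. The 65 arrays comprised 5 virgin mammary glands of nontransgenic FVB mice (9 weeks old), 7 hyperplastic mammary glands of MMTV-Wnt-1 transgenic mice (9 weeks), 23 mammary tumors of MMTV-Wnt-1 mice (9 to 56 weeks), 12 mammary tumors of MMTV-Neu mice (32 to 60 weeks), 10 Wnt-1 and 3 Neu lung metastases, 2 lung tumors in nontransgenic mice whose tail vein had received cells of Neu primary tumors, and 3 samples of intestinal fat of virgin FVB mice (12 weeks). Both transgenes are driven by the MMTV long terminal repeat, which is active mainly in mammary epithelium, and the Neu transgene is a rat cDNA of the wild-type protein. Some MMTV-Wnt-1 tumors carry activating mutations of Ha-Ras, which the labels do not mark. MMTV-Neu mice were FVB, whereas MMTV-Wnt-1 mice were a mixture of FVB, SJL and C57BL/6, so transgene, strain and age differ together between Wnt-1 and Neu samples and cannot be told apart here. Ages of the metastasis-bearing mice were not given in the sources used here, and the labels do not say which samples came from separate animals, so p-values measure the spread between these samples. The age range of the Wnt-1 tumors also covers tumors on another array design, which was not used here.

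Several arrays were wide. The SD of all log2 ratios of an array ran from 0.67 to 2.59, and it was above 1.3 on Wnt-1 tumors 42 and 49, Wnt-1 metastases 19, 50 and 52, and fat sample 44. Of the members' single clone values, 21 in 9 genes were beyond a ratio of 0.01, most of them on these arrays. Cell-type marker lists differed strongly between groups. The mean log2 ratio of 12 adipocyte genes was 2.11 in virgin glands, 0.86 in hyperplastic glands, -1.82 in Wnt-1 tumors and -1.88 in Neu tumors, and that of 6 skeletal muscle genes was 2.96, 2.47, -0.86 and -1.03. In bulk RNA, fewer cells of a type and less RNA per cell cannot be told apart.

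Across 8 comparisons of groups, 41 of the 56 genes passed an adjusted p of 0.05 (limma, Benjamini-Hochberg over all 7766 genes) at least once. The share of all genes that passed at least once was not computed. Neu tumors against virgin glands alone called 55.6% of all genes. Without a matching share over all genes, the 41 are not read as a trait of these families. The 15 that passed in none were Dlx5, Foxd1, Foxo1, Foxo3, Gata1, Hoxa4, Hoxb9, Hoxd12, Hoxd9, Klf7, Pax7, Snai1, Sox11, Tbx15 and Tead3. All but Pax7 had a smallest adjusted p of 0.0645 or more, and that of Pax7 was 0.054.

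**Figure D1:**
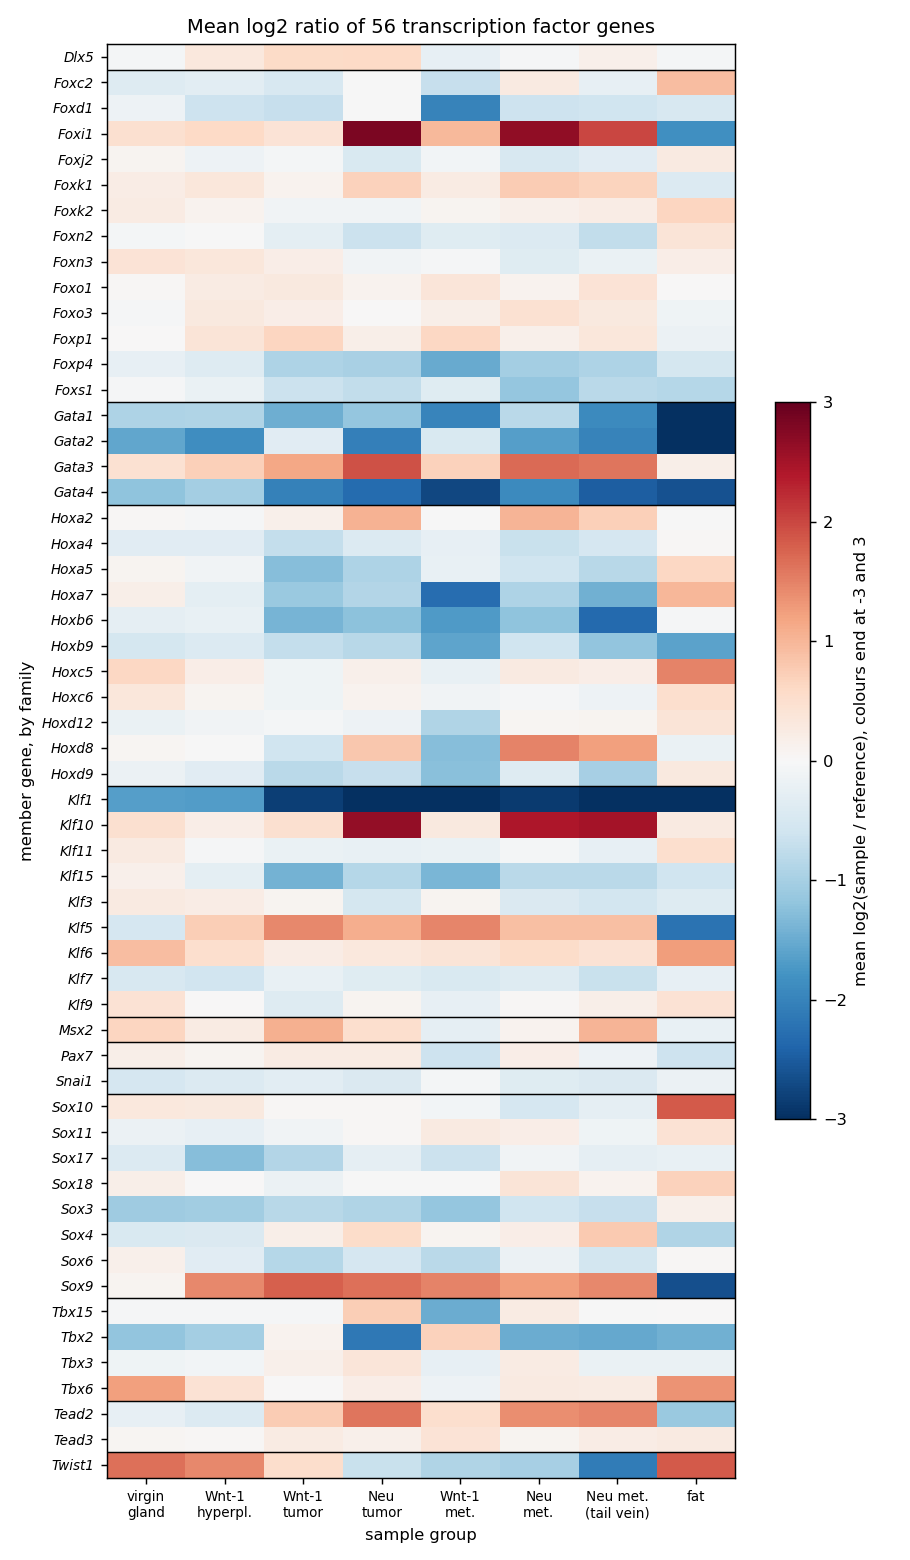
Mean log2 ratio to the reference RNA of each of the 56 genes (rows, ordered by family, black lines between families) in the 8 sample groups (columns). Red is above and blue below the reference, and colours end at -3 and 3. Klf10 and Foxi1 were deepest red in the Neu tumor and Neu metastasis columns, and Twist1 was red in virgin gland, hyperplastic gland and fat and blue in Neu samples.

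**Figure D2:**
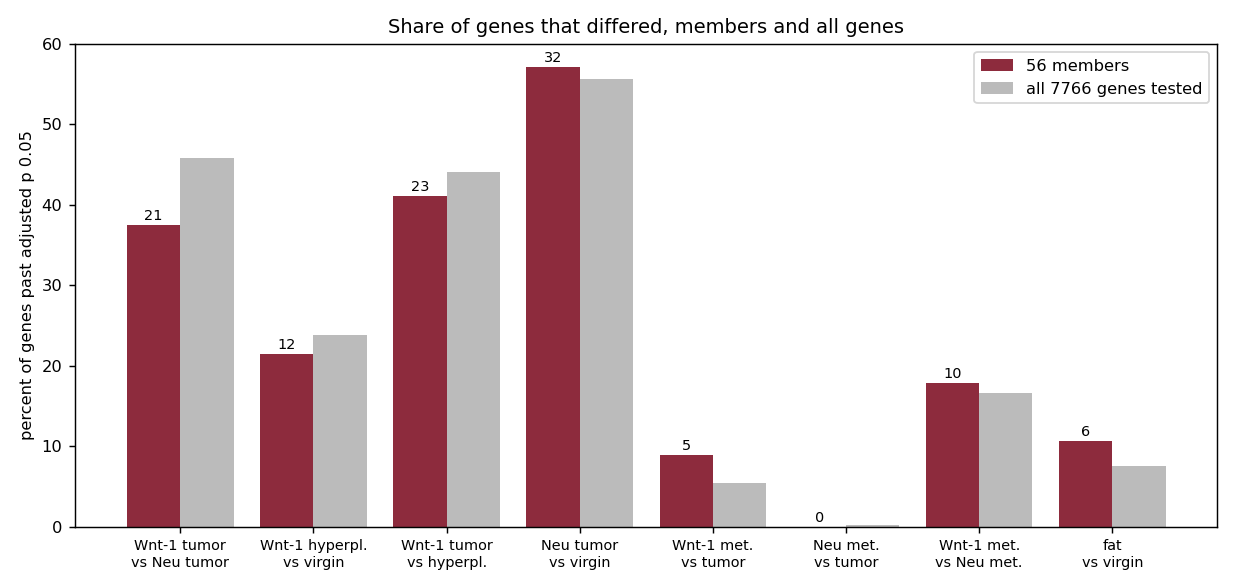
Percent of genes past an adjusted p of 0.05 in each comparison, for the 56 members (dark bars, with the number of members above) and for all 7766 genes tested (grey bars). The share of members was close to that of all genes in most comparisons, for example 37.5% against 45.8% between Wnt-1 and Neu tumors.

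The study asked whether tumors started by different oncogenes differ. Between the 23 Wnt-1 and the 12 Neu tumors, 21 of the 56 transcription factor genes differed, 8 higher and 13 lower in Wnt-1 tumors. This is 37.5% of the members, against 45.8% of all genes tested (22.8% higher and 23.0% lower). Without the wide arrays 28 members differed, 13 higher and 15 lower. The number of all genes called also rose there, from 3555 to 3803. Tbx2, Gata2 and Twist1 had the largest rises, and Foxi1, Klf10 and Hoxd8 the largest falls. No Hox or Sox gene was higher in Wnt-1 tumors: 4 of 11 Hox genes and 2 of 8 Sox genes were lower and the others did not pass the test.

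Tbx2 is a T-box repressor known for restraining senescence genes, and it had 1 clone. Its log2 ratio ran from -0.44 to 0.87 in Wnt-1 tumors, with a median of 0.08, and from -3.11 to -1.23 in Neu tumors, with a median of -2.14. The groups did not overlap, as was the case for 5.32% of all genes. The difference was 2.26 ± 0.14 (SE, adjusted p = 2.1e-15), a 4.78-fold higher ratio in Wnt-1 tumors. Virgin glands lay between them at -1.18 ± 0.10 (SD, n = 5), so Tbx2 was above the gland in Wnt-1 tumors and below it in Neu tumors.

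Twist1, a basic helix-loop-helix factor of mesenchyme, ran from -0.09 to 1.22 in Wnt-1 tumors (median 0.55) and from -1.12 to -0.22 in Neu tumors (median -0.71), again without overlap. The difference was 1.19 ± 0.12 (SE, adjusted p = 2.23e-10). All 3 Twist1 clones passed the test in this direction, with differences of 1.62, 1.23 and 0.71. Mesenchymal markers moved the same way: of 6 fibroblast genes, 3 were higher and none lower in Wnt-1 tumors, and the mean of the list ran from -1.24 to 0.55 in Wnt-1 tumors and from -2.20 to -0.10 in Neu tumors. Their part in the Twist1 difference was not tested.

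Gata2, a zinc finger factor of blood progenitors and endothelium, varied widely among Wnt-1 tumors. It ran from -7.76 to 2.83 there, with a median of -0.41 and an SD of 2.08 (1.36 without the wide arrays), against -4.70 to -0.35 in Neu tumors, with a median of -1.86. The groups overlapped, and 11 of 23 Wnt-1 tumors were above every Neu tumor. The difference was 1.69 ± 0.62 (SE, adjusted p = 0.0248). The lowest value came from the wide array of tumor 49, and without the wide arrays the difference was 2.07 (adjusted p = 0.000184). Of 10 endothelial genes, 6 were higher and none lower in Wnt-1 tumors, and their part in this difference was not tested.

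A further 5 genes were higher in Wnt-1 tumors by smaller amounts. The Krüppel-like repressor Klf3 differed by 0.59 ± 0.09 and the forkhead repressor Foxp1 by 0.46 ± 0.05, and 22 of 23 Wnt-1 tumors were above every Neu tumor for each of them. Foxj2, Foxn2 and Foxn3, less studied forkhead genes, differed by 0.40, 0.35 and 0.29. The 4 clones of Foxp1 did not move alike: 3 passed the test with differences of 1.03, 0.46 and 0.39, and the other had a difference of -0.02 (adjusted p = 0.748).

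The promoters of 3 of the genes with the largest differences (Hoxd8, Foxi1 and Twist1) are shown so that words read by Wnt signaling and by Klf proteins can be looked for in them. Promoters of Tbx2 and Klf10 were not at hand. Those of Gata2, which held GC boxes and no TCF/LEF word, are not shown. They are the 250 bases before the RefSeq start (GRCm38.p6), 5′ to 3′ on the strand of the gene. Capitals mark matches to a TCF/LEF word, CTTTGAT or CTTTGAA, or to the GC box GGGCGG, each searched on both strands. TCF/LEF factors are the DNA-binding partners of β-catenin in Wnt signaling, and GC boxes are bound by Sp and Klf proteins.
Hoxd8, chr2:74704365-74704614, plus strand: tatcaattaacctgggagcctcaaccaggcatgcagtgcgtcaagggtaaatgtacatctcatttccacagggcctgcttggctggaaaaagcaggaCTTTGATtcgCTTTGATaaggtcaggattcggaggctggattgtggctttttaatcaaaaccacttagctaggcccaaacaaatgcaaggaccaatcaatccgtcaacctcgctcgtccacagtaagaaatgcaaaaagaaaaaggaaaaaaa
Foxi1, chr11:34208090-34208339, minus strand: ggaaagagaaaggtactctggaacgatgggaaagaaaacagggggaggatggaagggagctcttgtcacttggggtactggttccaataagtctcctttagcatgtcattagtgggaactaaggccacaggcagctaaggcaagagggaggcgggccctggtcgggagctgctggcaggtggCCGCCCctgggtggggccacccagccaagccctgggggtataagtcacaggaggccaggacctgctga
Twist1, chr12:33957421-33957670, plus strand: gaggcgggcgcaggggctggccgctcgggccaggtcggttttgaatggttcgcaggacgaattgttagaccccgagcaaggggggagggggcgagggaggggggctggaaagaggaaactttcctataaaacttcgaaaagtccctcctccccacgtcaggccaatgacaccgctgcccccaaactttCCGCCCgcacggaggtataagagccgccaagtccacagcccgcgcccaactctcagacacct

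The Hoxd8 window held 2 TCF/LEF words and no GC box, and the windows of Foxi1 and Twist1 held 1 GC box each and no TCF/LEF word. Promoters were at hand for 35 of the 56 genes (45 promoters, since some genes have several). A TCF/LEF word occurred in 6 of these 45 (13.3%) and in 7.48% of 32851 promoters of all genes, and a GC box in 28 of 45 (62.2%) and in 32.7% of all. Of the 6 with a TCF/LEF word, several were alternative promoters of Sox6, and the rest were of Foxp1, Hoxd12 and Hoxd8. The 13.3% therefore counts Sox6 more than once. These matches are a description of letters in the window and carry no information on binding in these samples.

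Among the genes that were lower in Wnt-1 tumors, Klf10, a Krüppel-like factor induced early by transforming growth factor β, differed most clearly. It ran from -0.37 to 0.99 in Wnt-1 tumors (median 0.49) and from 1.86 to 3.16 in Neu tumors (median 2.77), with no overlap. The difference was -2.16 ± 0.13 (SE, adjusted p = 4.25e-16), a 4.47-fold lower ratio. Virgin glands, at 0.48 ± 0.35 (SD, n = 5), had the same mean as Wnt-1 tumors, at 0.48 ± 0.30 (SD, n = 23), and only the Neu samples stood above the gland.

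Foxi1, a forkhead factor of ion-transporting cells in kidney and inner ear, showed a similar order. It ran from -5.73 to 2.18 in Wnt-1 tumors (median 0.56) and from 2.03 to 3.50 in Neu tumors (median 2.95). All but 2 Wnt-1 tumors were below every Neu tumor. The difference was -2.41 ± 0.45 (SE, adjusted p = 2.69e-05), and it was -2.09 without the wide arrays, on which the lowest value (tumor 42) lay. Virgin and hyperplastic glands were at 0.48 and 0.59.

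Hoxd8, a homeobox gene of the HoxD cluster, ran from -1.22 to 0.18 in Wnt-1 tumors (median -0.72) and from -0.01 to 1.43 in Neu tumors (median 0.95). In 22 of 23 Wnt-1 tumors it was below every Neu tumor, and the difference was -1.41 ± 0.15 (SE, adjusted p = 9.09e-10). Its level in virgin glands, 0.06 ± 0.25 (SD, n = 5), fell between the tumor types. Its neighbors in the cluster, Hoxd9 and Hoxd12, did not pass the test. Hoxa2, a gene of hindbrain and branchial arch patterning, differed by -0.89 ± 0.30 (SE, adjusted p = 0.0132), with wide overlap.

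Tead2, the Tead protein most used in early embryos, was at 0.77 ± 0.34 (SD, n = 23) in Wnt-1 tumors and at 1.61 ± 0.34 (SD, n = 12) in Neu tumors. The difference was -0.84 ± 0.12 (SE, adjusted p = 3.48e-07), whereas Tead3 did not pass in any comparison. Gata3 was at 1.15 ± 0.52 in Wnt-1 tumors and 1.92 ± 0.46 in Neu tumors, a difference of -0.76 ± 0.17 (SE, adjusted p = 0.000417), with 7 of 23 Wnt-1 tumors below every Neu tumor. After quantile normalization the Gata3 difference was -0.42 (adjusted p = 0.0495). The forkhead factor Foxk1 did not overlap between the groups, with a smaller difference of -0.60 ± 0.05 (SE). Klf15 and Klf9, which are hormone- and metabolism-responsive Krüppel-like factors, differed by -0.57 and -0.45, and Sox6, known for cartilage and red cell development, by -0.36. Hoxc5, Hoxc6 and the endothelial factor Sox18 were also lower, by 0.28, 0.23 and 0.17 on the log2 scale in size.

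**Figure D3:**
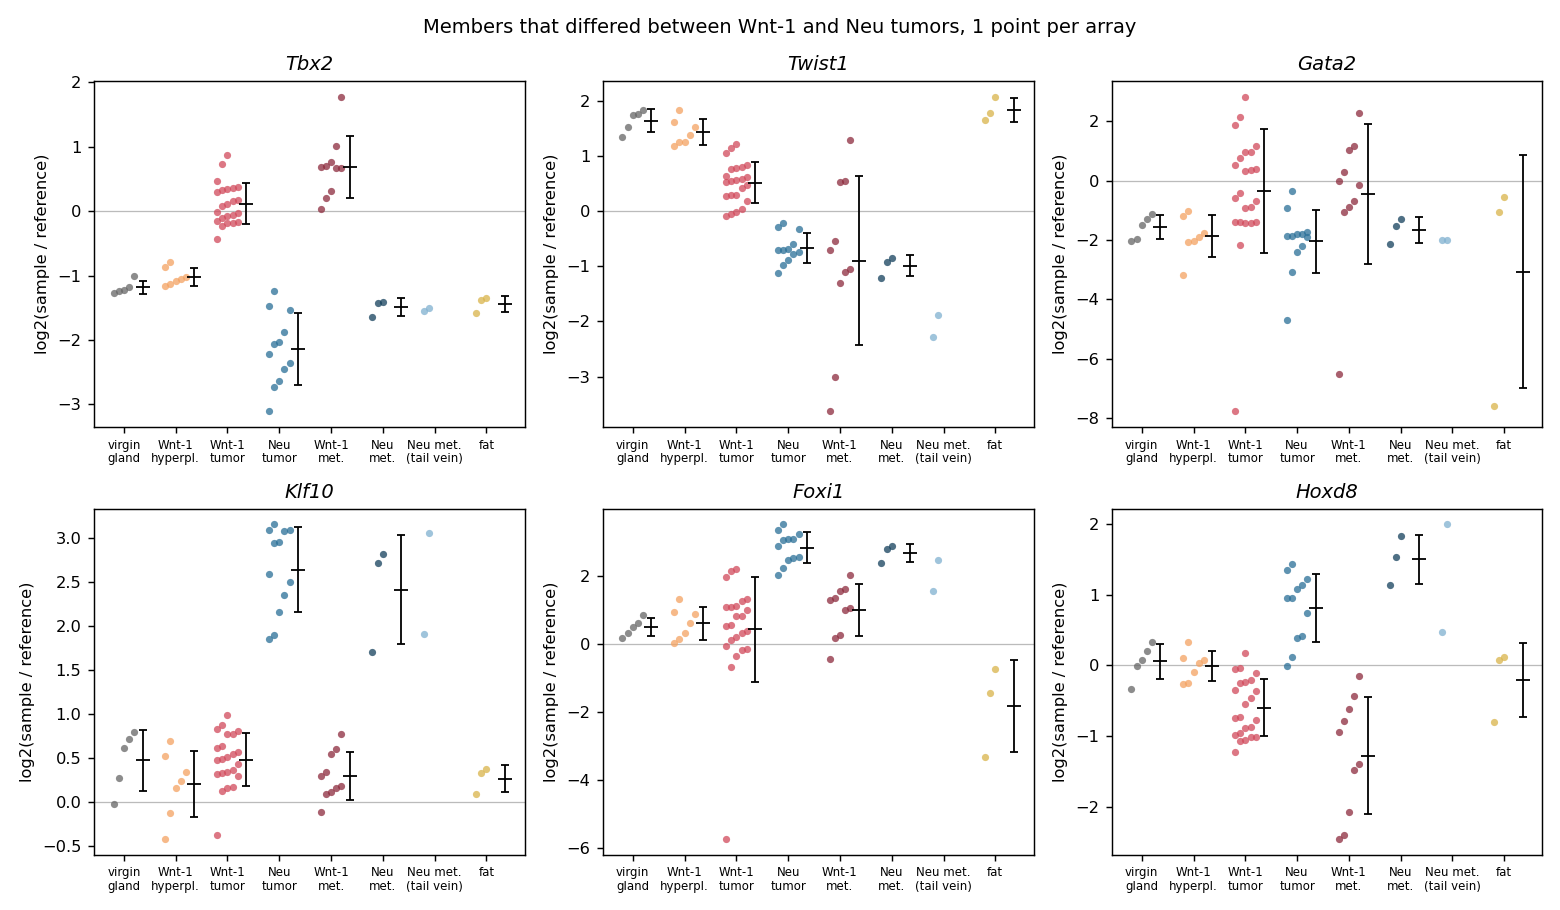
Log2 ratio to the reference RNA of Tbx2, Twist1, Gata2, Klf10, Foxi1 and Hoxd8 on each of the 65 arrays, by sample group, with mean ± SD for groups of 3 or more arrays. Tbx2 and Twist1 were higher in every Wnt-1 tumor than in any Neu tumor and Klf10 lower, whereas Gata2 and Foxi1 had single arrays far below their group.

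Genes that work with these families were described by 7 lists of partners, targets and cofactors. Of 12 Tead partners and Hippo kinases, 3 were higher and 5 lower in Wnt-1 tumors, with a median difference of -0.10 against -0.03 over all genes. The scaffold Amotl1 differed by 0.95, the kinase Lats2 by 0.50 and the kinase activator Mob1b by -0.32. Of 7 known Tead target genes, 4 were higher and 1 lower (median 0.49), with Fstl1 at 1.86, Arhgef17 at 0.84 and the receptor kinase Axl at 0.83. Tead2 itself was lower in these tumors.

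Of 11 genes that partner or are controlled by Snail and Twist proteins, 7 were higher and 3 lower (median 0.61). N-cadherin (Cdh2) differed by 1.76, and the E proteins Tcf4 and Tcf3, which pair with Twist1, by 0.94 and 0.92. Epithelial genes of the list went both ways: E-cadherin (Cdh1) and Muc1 were higher, by 0.61 and 1.10, and the tight junction genes Cldn1, Cldn4 and Cldn7 had differences of -0.48, -0.27 and -0.22. Of 5 luminal partners of Gata3 and Foxa1, 1 was higher and none lower: Krt19, at 6.04, while Esr1, Elf5, Stat5a and Zfpm1 did not pass.

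Of 4 cofactors of sine oculis and LIM homeobox proteins, 3 were higher (Lmo1 by 1.02, Eya2 by 1.00 and Lmo2 by 0.35) and none lower. Of 4 Groucho and CtBP corepressors, only Tle4 passed, at -1.50. Of 2 Hox cofactors measured, Pbx3 was higher, by 0.64, and Pbx2 did not pass. Beside these, 5 of 6 myoepithelial markers were higher in Wnt-1 tumors and none lower, and their mean ran from -0.13 to 0.95 there and from -1.89 to -0.57 in Neu tumors. Whether that cell type carried any of these differences was not tested.

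Lung metastases allow the oncogenes to be compared on other arrays. Between 10 Wnt-1 and 3 Neu lung metastases, 10 members differed, 3 higher and 7 lower in Wnt-1 samples, against 16.6% of all genes (7.53% higher and 9.07% lower). Of the 21 members that differed between primary tumors, all 21 had the same sign here and 9 passed again in that direction, which is 42.9% of the primary list and all but 1 of the 10 that passed in metastases. Over all 3555 genes that differed between primary tumors, 91.8% had the same sign in metastases and 32.6% passed again in that direction. Marker lists moved as well: 5 of 6 myoepithelial and 4 of 10 endothelial genes were higher in Wnt-1 metastases and none lower, and the mean of 7 lung epithelium genes was 0.60 in Wnt-1 and -0.30 in Neu metastases. Their part in the members' differences was not tested. No array is shared by the comparisons, although several tumors and metastases carry the same number in their titles.

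Tbx2 ran from 0.03 to 1.77 in Wnt-1 metastases (median 0.68), and the Neu metastases were at -1.41, -1.42 and -1.65, a difference of 2.17 ± 0.28 (SE, adjusted p = 0.00017). Klf10 ran from -0.11 to 0.78, with Neu metastases at 2.82, 2.72 and 1.71, a difference of -2.11 ± 0.23 (SE, adjusted p = 4.55e-05). Hoxd8 ran from -2.45 to -0.15 in Wnt-1 metastases, with Neu metastases at 1.13, 1.53 and 1.83. Its difference, -2.77 ± 0.47 (SE, adjusted p = 0.00135), was the largest fall among members that passed here. None of these 3 genes overlapped between the groups, as was the case for 14.9% of all genes.

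Foxi1 ran from -0.45 to 2.02 in Wnt-1 metastases against 2.86, 2.77 and 2.36 in the Neu samples (difference -1.68, adjusted p = 0.018). Sox6, Tead2, Foxk1, Klf3 and Foxp1 also passed with the sign they had in primary tumors, at -0.65, -0.88, -0.52, 0.52 and 0.47. Tbx6, a mesoderm factor, passed in metastases only, at -0.43, beside -0.19 (adjusted p = 0.099) in primary tumors. Twist1 had a difference of 0.09 (adjusted p = 0.954) between metastases with the wide arrays 50 and 52 among them, and of 0.81 ± 0.52 (SE, adjusted p = 0.315) without the wide arrays. With 3 Neu metastases the calls were fragile: 5, 5 and 7 members passed when Neu metastasis 53, 56 or 61 was left out. Over all genes 799, 943 and 756 passed then, against 1289 with every array. Klf10, Tbx2, Hoxd8 and Sox6 passed in all 3 cases. Tead2 and Foxk1 did not pass after quantile normalization, Foxp1 with the median of clones, or Klf3, Foxi1 and Tbx6 with all groups in 1 fit. The 2 tail-vein tumors, which this fit does not include, were at -1.55 and -1.51 for Tbx2, 3.06 and 1.91 for Klf10, and 0.47 and 1.99 for Hoxd8.

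**Figure D4:**
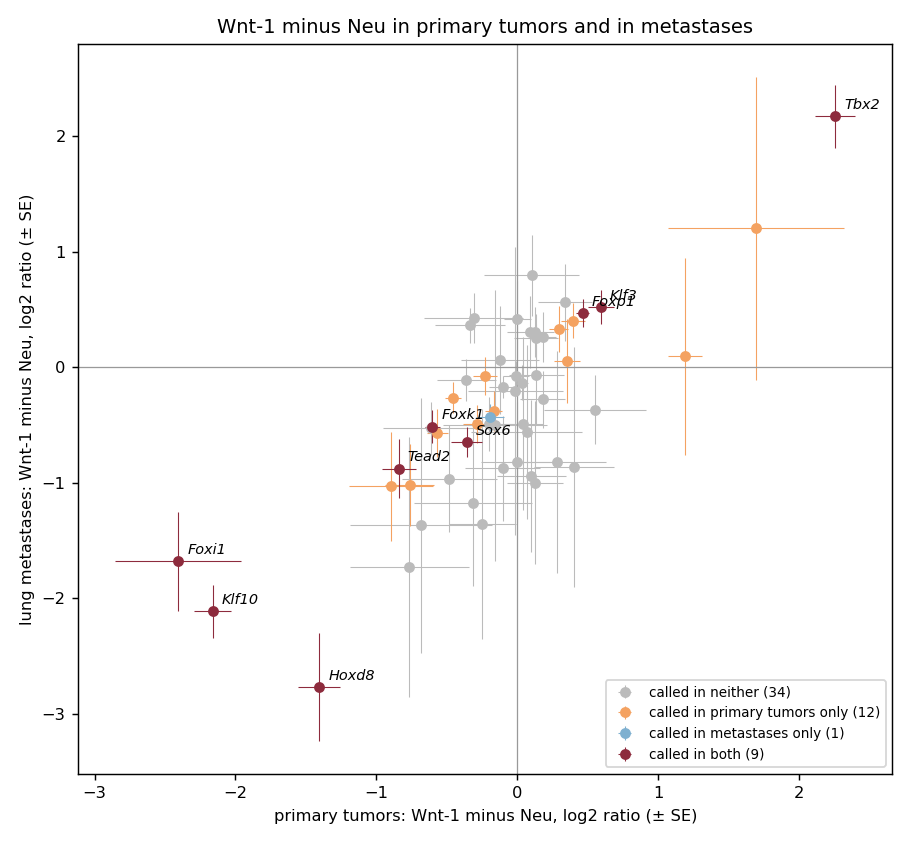
Difference in mean log2 ratio between Wnt-1 and Neu samples for each of the 56 genes, in primary tumors (horizontal, 23 against 12 arrays) and in lung metastases (vertical, 10 against 3 arrays), with standard errors. The 9 named genes passed in both, Tbx2 at upper right and Hoxd8, Klf10 and Foxi1 at lower left, and 12 genes passed in primary tumors only.

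The next question was what changes when Wnt-1 hyperplasia replaces the normal gland. Between 7 hyperplastic and 5 virgin glands of the same age, 12 members differed, 3 higher and 9 lower, against 23.8% of all genes (9.58% higher and 14.3% lower). The strains of these glands differ too. Sox9 and Klf5 had the largest rises among members that passed, and the Klf family had more falls than rises, with 1 of 9 higher and 4 lower. Of the 12 adipocyte markers, 10 were lower in hyperplastic glands and none higher, with a median difference of -1.24. Luminal markers (3 of 6) and proliferation genes (3 of 5) were higher and none lower, with median differences of 0.57 and 0.62. How far these lists bear on the members' differences was not tested.

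Sox9 was at -0.40, 0.18, 0.13, 0.10 and 0.39 in the virgin glands and ran from 0.66 to 2.03 in hyperplastic glands (median 1.45). The groups did not overlap, which held for 12.5% of all genes. The difference was 1.36 ± 0.20 (SE, adjusted p = 0.000412), a 2.57-fold higher ratio, and both Sox9 clones passed, at 1.53 and 1.20. Klf5, a Krüppel-like factor of proliferating epithelium, was at -0.81, -0.69, -0.21, -0.40 and -0.36 in virgin glands and ran from 0.10 to 1.67 in hyperplastic glands (median 0.77). Its difference was 1.24 ± 0.22 (SE, adjusted p = 0.00144). Foxp1 differed by 0.37 ± 0.08 (SE, adjusted p = 0.00486), but 1 of its 4 clones passed alone, at 0.95, and with the median of clones the difference was 0.10 (adjusted p = 0.4).

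Among the falls, Sox17, an endoderm and endothelial factor, differed by -0.86 ± 0.24 (SE, adjusted p = 0.018) and Tbx6 by -0.80 ± 0.19 (SE, adjusted p = 0.00839). Tbx6 was at 1.06, 0.65, 0.99, 1.72 and 1.77 in virgin glands and ran from 0.15 to 0.87 in hyperplastic glands, with a narrow overlap. Sox6 (-0.48) and Hoxa7 (-0.46) did not overlap between the groups. Smaller falls were those of Klf15 (-0.44), Hoxc5 (-0.42), Klf9 (-0.41), Klf6 (-0.40) and Klf11 (-0.30), all with an adjusted p between 0.015 and 0.0377. Sox17, Klf15, Hoxc5, Klf9, Klf6 and Klf11 each fell short of the threshold when certain single virgin glands were left out: 6 members passed without gland 28, 7 without gland 29 and 8 without gland 27. Over all genes 1271, 1337 and 1379 passed in these cases, against 1851 with every gland. With all groups in 1 fit Sox17, Hoxa7, Klf15 and Hoxc5 did not pass, and after quantile normalization Klf15 and Klf6 did not. Of 10 endothelial markers, 6 were lower in hyperplastic glands beside the fall of Sox17, and their part was not tested.

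From hyperplastic gland to Wnt-1 tumor, 23 members differed, 5 higher and 18 lower in tumors, against 44.1% of all genes (21.9% higher and 22.2% lower). The split moved with the processing. It was 10 higher and 17 lower after quantile normalization, 10 and 20 without the wide arrays, and 5 and 12 with each array centred on its median. Over all genes these settings called 3757, 3718 and 3381, against 3427 in the main fit. Tead2 and Tbx2 rose most, and the Hox family had 6 of 11 genes lower and none higher. Klf15, Hoxa5, Hoxb6, Klf1 and Twist1 had falls near 1 or more on the log2 scale. Adipocyte, fibroblast and skeletal muscle markers fell in the same comparison. In that order, 11 of 12, 5 of 6 and all 6 were lower in tumors and none higher, with median differences of -2.24, -1.49 and -3.57. Of the endothelial genes 6 of 10 were lower and 1 higher, and 5 of 8 lymphocyte genes were lower. All 5 proliferation genes (median 1.36) and 3 of 6 luminal genes were higher. Those cell types and the members' falls could not be separated in bulk RNA. Ages ran from 9 to 56 weeks for the tumors, against 9 weeks for the hyperplastic glands, and were not in the fit.

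Tead2 ran from -0.77 to -0.15 in hyperplastic glands (median -0.35) and from 0.24 to 1.55 in tumors (median 0.69), with no overlap, as for 8.14% of all genes. The rise was 1.18 ± 0.14 (SE, adjusted p = 2.58e-08). Tbx2 ran from -1.17 to -0.79 in hyperplastic glands, below every tumor, and rose by 1.13 ± 0.12 (SE, adjusted p = 9.17e-09). Neither gene had passed between hyperplastic and virgin gland, where Tead2 differed by -0.16 (adjusted p = 0.419) and Tbx2 by 0.16 (adjusted p = 0.206). Klf5 rose further, by 0.70 ± 0.26 (SE, adjusted p = 0.0278), and Foxp1 by 0.26. Sox4, a progenitor factor, differed by 0.61 (adjusted p = 0.0124) with the mean of its 3 clones and by 0.28 (adjusted p = 0.194) with their median. Sox9, already high in hyperplastic glands, differed by 0.34 ± 0.21 (SE, adjusted p = 0.188).

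Klf15 ran from -0.65 to -0.02 in hyperplastic glands and from -1.81 to -0.84 in tumors, without overlap, a fall of 1.12 ± 0.10 (SE, adjusted p = 2.49e-10). Twist1 was lower in 22 of 23 tumors than in any hyperplastic gland, with a difference of -0.92 ± 0.15 (SE, adjusted p = 5.84e-06). Hoxa5, a known regulator of mammary epithelial differentiation, differed by -1.17 ± 0.21 (SE, adjusted p = 3.1e-05). Hoxb6 and the red cell factor Klf1 differed by -1.16 and -1.14, with adjusted p-values of 0.0461 and 0.0117, and without the wide arrays their differences were -0.83 and -0.92. Klf1 differed by -0.64 after quantile normalization, and Hoxb6, Hoxa7 and Foxp4 did not pass with all groups in 1 fit. Hoxa7, Hoxd8, Foxp4, Sox6 and Tbx6 differed by -0.84, -0.58, -0.55, -0.53 and -0.42. The other 8 that were lower (Klf9, Hoxc5, Klf6, Foxn2, Foxk1, Hoxc6, Sox18 and Klf11) had differences between -0.40 and -0.16.

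**Figure D5:**
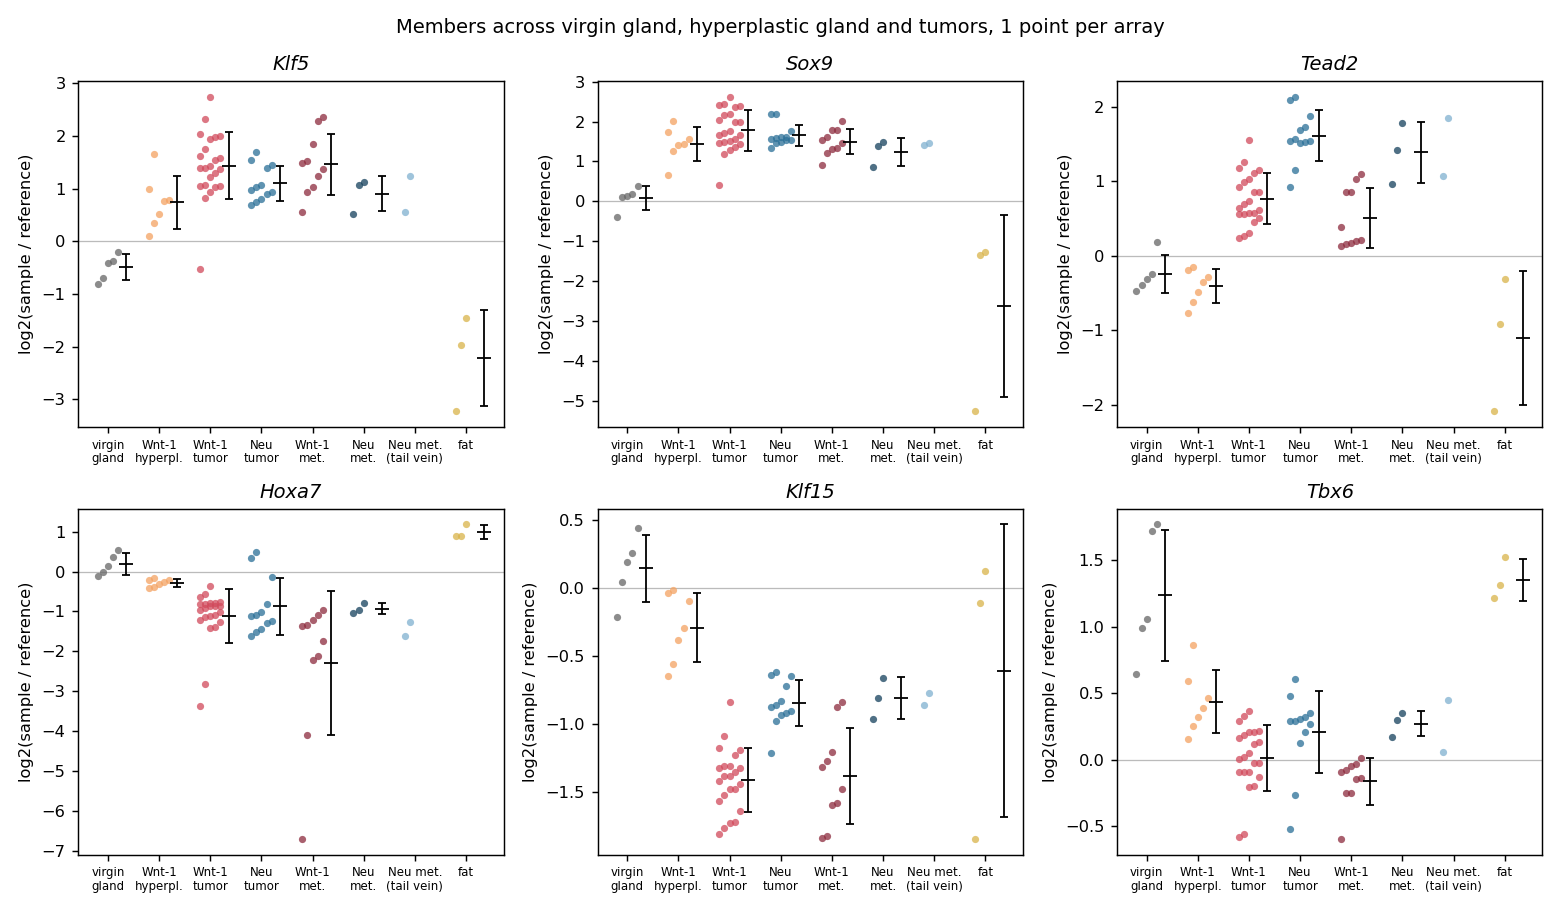
Log2 ratio to the reference RNA of Klf5, Sox9, Tead2, Hoxa7, Klf15 and Tbx6 on each array, by sample group, with mean ± SD for groups of 3 or more arrays. Klf5 and Sox9 were above the virgin glands already in hyperplastic glands, Tead2 in tumors, and Klf15 was lower in hyperplastic glands and lower again in tumors.

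Several members changed at more than 1 stage, and the comparisons share the hyperplastic glands, so their values are given side by side. The mean of Klf15 was 0.15 in virgin glands, -0.29 in hyperplastic glands and -1.41 in Wnt-1 tumors. For Hoxa7 the means were 0.18, -0.28 and -1.12, and for Tbx6 they were 1.24, 0.44 and 0.01. Sox6 went from 0.15 to -0.33 and -0.86, and Klf6, an early growth-response Krüppel-like factor, from 0.92 to 0.51 and 0.21. Klf5 had means of -0.49, 0.74 and 1.44. The fat samples were at 1.35 ± 0.16 (SD, n = 3) for Tbx6 and 1.26 ± 0.12 for Klf6, near or above the virgin gland, whereas Klf15 ranged from -1.84 to 0.13 in fat.

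Neu tumors against virgin glands gave the most calls. Mice with Neu tumors were 32 to 60 weeks old and virgin mice 9 weeks, so tumor state and age cannot be told apart. In this comparison 32 members differed, 12 higher and 20 lower in tumors, against 55.6% of all genes (26.8% higher and 28.8% lower), and 17 did not overlap between the groups (27.7% of all genes). Foxi1, Klf10, Tead2, Klf5, Sox9 and Gata3 had the largest rises, and Twist1 and Klf1 the largest falls. All 12 adipocyte genes, all 10 endothelial genes, 5 of 6 fibroblast genes and all 6 skeletal muscle genes were lower in the tumors and none higher. Also lower were 6 of 8 lymphocyte and 4 of 6 myoepithelial genes, with none higher. Of 6 luminal genes 3 were higher and 3 lower, and all 5 proliferation genes were higher. The part of those cell types in the members' differences was not tested.

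Foxi1 was at 0.85, 0.48, 0.32, 0.16 and 0.61 in virgin glands and rose by 2.34 ± 0.21 (SE, adjusted p = 3.76e-08), a 5.07-fold higher ratio. Klf10 was at -0.03, 0.27, 0.80, 0.61 and 0.72 in virgin glands and rose by 2.17 ± 0.23 (SE, adjusted p = 2.2e-07). Tead2 rose by 1.85 ± 0.17, Klf5 by 1.60 ± 0.16, Sox9 by 1.58 ± 0.14 and Gata3 by 1.45 ± 0.21 (SE), and for these 4 genes every Neu tumor was above every virgin gland. Hoxa2, Sox4 and Hoxd8 rose by 1.03, 1.01 and 0.76, and Tbx3, Foxk1 and the mesenchymal forkhead factor Foxc2 by 0.49, 0.48 and 0.38. The call of Tbx3 was lost (adjusted p up to 0.12) without virgin gland 17, 27, 28 or 29.

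Twist1 was at 1.52, 1.84, 1.35, 1.77 and 1.74 in virgin glands, above every Neu tumor, and fell by 2.31 ± 0.14 on the log2 scale (SE, adjusted p = 1.26e-10). Its 3 clones differed by -2.80, -2.60 and -1.54. Klf1 fell by 1.58 ± 0.14 and the heart and endoderm factor Gata4 by 1.10 ± 0.33, with both below the reference in every group mean. After quantile normalization Klf1 differed by -0.94 and Gata4 by -0.64, where Gata4 no longer passed (adjusted p = 0.0852). Hoxa7, Tbx6, Klf15, Tbx2, Hoxb6, Klf3 and Foxp4 differed by -1.05, -1.03, -0.99, -0.96, -0.95, -0.80 and -0.72. The Tbx2 difference was -0.49 after quantile normalization, and Gata4, Hoxa7, Hoxb6, Foxp4 and Tbx3 did not pass with all groups in 1 fit. The other 10 falls (Foxs1, Sox6, Klf6, Foxn2, Foxj2, Foxn3, Klf11, Hoxc5, Klf9 and Foxk2) lay between -0.71 and -0.33. Foxp1 did not pass (0.16, adjusted p = 0.0797), and 2 of its clones passed in opposite directions, at 0.66 and -0.40.

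The deposited arrays also allow lung metastases to be set against primary tumors. Between 10 Wnt-1 metastases and 23 Wnt-1 tumors, 5 members differed, 2 higher and 3 lower in metastases, against 5.46% of all genes (2.88% higher and 2.58% lower), and none was free of overlap (0.27% of all genes were). Hoxa5 and Tbx2 were higher, and Twist1, Msx2 and Hoxd8 lower. Lung epithelium markers set the metastases apart: the mean of 7 genes ran from -0.54 to 1.48 there and from -3.71 to -2.11 in primary tumors. Of the 7, 5 were higher and none lower, and 3 of 6 fibroblast genes were lower. How much lung RNA the samples held was not measured. The part of lung and stromal RNA in the members' differences was not tested.

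Hoxa5, which is also needed for lung development, ran from -0.52 to 0.14 in metastases (median -0.34) and from -2.38 to -0.01 in tumors (median -1.19). The difference was 1.03 ± 0.16 (SE, adjusted p = 2.88e-05), and it was 1.13 without the wide arrays. Over the title numbers shared by tumors and metastases, with the number as a fixed block in limma, it was 1.25 and did not pass (adjusted p = 0.0876). Tbx2 differed by 0.57 ± 0.14 (SE, adjusted p = 0.0102), Twist1 by -1.42 ± 0.33, the homeobox gene Msx2 by -1.33 ± 0.33 and Hoxd8 by -0.68 ± 0.21. Twist1 ranged from -3.63 to 1.3 in metastases, and its lowest values, -3.63 and -3.01, came from the wide arrays 50 and 52. Without the wide arrays Tbx2, Twist1, Msx2 and Hoxd8 no longer passed, with differences of 0.37, -0.66, -1.05 and -0.55 and adjusted p-values from 0.0861 to 0.256.

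Between 3 Neu metastases and 12 Neu tumors, no member passed the test in limma, against 0.155% of all genes, all of them higher in metastases. At an unadjusted p under 0.05 there were 3 (Sox18 at 0.39, Hoxd8 at 0.68 and Sox9 at -0.41), the smallest adjusted p was 0.632, and the methods' permutation test called 0 members. No member was free of overlap (0.94% of all genes were). Whether the change from tumor to metastasis differed between the oncogenes was tested as an interaction in limma. None of the 56 genes passed (0.0515% of all genes did, 0.0386% higher and 0.0129% lower), 2 were at an unadjusted p under 0.05, and the smallest adjusted p was 0.236. Those 2 were Hoxd8, at -1.36 ± 0.39 (SE, adjusted p = 0.236), and Hoxb9, at -1.13 ± 0.56 (SE, adjusted p = 0.63). From tumor to metastasis Hoxd8 differed by -0.68 in Wnt-1 and by 0.68 in Neu samples. For Twist1, with the wide arrays included, the interaction was -1.10 ± 0.55 (SE, adjusted p = 0.645). With 3 Neu metastases such differences have wide errors.

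Intestinal fat served the study as a control for fat cells in the gland. Between 3 fat samples and 5 virgin glands, 6 members differed, 3 higher and 3 lower in fat, against 7.49% of all genes (4.3% higher and 3.19% lower). In 19 members the groups did not overlap, against 27.8% of all genes. Sox10, a neural crest and Schwann cell factor, was at 1.95, 1.63 and 1.93 in fat and at 0.34, 0.45, 0.09, 0.46 and 0.22 in virgin glands, a difference of 1.52 ± 0.14 (SE, adjusted p = 0.00187). It was the only member that passed under every leave-out of a single array. Sox3, a neural Sox factor, was at 0.41, 0.23 and -0.19 against -0.76, -0.62, -1.10, -1.55 and -1.25, a difference of 1.21, and Hoxa7 differed by 0.80.

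Klf5 was at -3.22, -1.97 and -1.46 in fat, lower than every virgin gland by a difference of -1.72 ± 0.38 (SE, adjusted p = 0.0375). Foxi1 was at -3.32, -1.43 and -0.74 (difference -2.32) and Klf1 at -3.95, -3.03 and -2.33 (difference -1.46). For these 3 genes the lowest value was on the wide array 44, and after quantile normalization Klf1 differed by 0.02 (adjusted p = 0.981), Klf5 by -0.94 (adjusted p = 0.0515), Foxi1 by -1.53 and Sox10 by 1.01. Hoxa7 did not pass after quantile normalization, Klf5 and Klf1 with a trended robust variance, or Sox3, Hoxa7 and Klf1 with all groups in 1 fit. Sox9 was at -5.26, -1.35 and -1.27 and did not pass, with a difference of -2.71 ± 0.88 (SE, adjusted p = 0.102). Of 6 luminal markers, 4 were lower in fat and none higher. Depending on which array was left out, 1 to 9 members passed: 1 without fat sample 45 or virgin gland 27 or 29, 2 without virgin gland 17 or 28, and 9 without fat sample 44. Over all genes, 274, 212, 241, 223, 246 and 999 passed in these cases, against 582 with every array.

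Among samples of a group, members varied more than the array's genes as a whole. Their median SD over the 23 Wnt-1 tumors was 0.51 against 0.27 for all genes, and 0.35 against 0.24 without the wide arrays. In the Neu tumors it was 0.38 against 0.26. Gata2, Gata1, Tbx15 and Foxd1 had SDs of 1.36, 1.46, 1.06 and 1.05 among Wnt-1 tumors without the wide arrays. Measurement quality and spot intensity were not used here.

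The 18 members with several clones allowed a check of the measurement itself. The correlation between clones of a gene over the 65 arrays, which share both arrays and reference, was 0.70 to 0.78 for Twist1 and 0.77 for Sox9. It was -0.04 for Hoxb9, -0.08 for Klf7 and from -0.40 to 0.57 for Foxp1. Other genes that passed in some comparison also had low values: -0.13 to 0.64 for Foxn3, -0.09 to 0.75 for Sox4, -0.16 to 0.56 for Tbx3 and 0.15 to 0.21 for Klf11. A gene with 1 clone, as Tbx2, Klf10, Foxi1, Hoxd8 and Tead2 are here, has no such check.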

How the data were processed

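RNA of 65 samples was hybridised to mouse 15k cDNA arrays with Cy5 for the sample and Cy3 for a common reference. The authors deposited normalized log2 ratios of sample over reference, 1 value per clone; 3031 ratios under 0.01 were all whole multiples of 1e-04 within 0.02 of a step when read as base 2. Image analysis used ArraySuite, per the methods. Quality scores and arrays of a smaller design were not used here, and the number of per-sample columns left out of the table was 0. Clones were named through GEO's platform annotation (11860 with a single symbol, 705 with several, 2795 with none), and all 56 member symbols were found in RefSeq. Clones were averaged per gene, with no further scaling and no pseudocount, and 0 member values were missing.

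Groups of arrays were compared in pairs with limma 3.58.1 (lmFit and eBayes, R 4.3.3), two-sided, with Benjamini-Hochberg adjustment over all 7766 genes and a threshold of 0.05. Genes with values on fewer than 50% of either group's arrays were not tested. The script was tested on simulated data. Arrays carry no counts, so the number of arrays limits the precision. The members, marker lists and partner lists were chosen with earlier results of these data known. Members named in each comparison were those past the threshold, up to 10 rises and 10 falls of largest size, with the others given by range or value; from each partner list the 3 genes of smallest adjusted p between Wnt-1 and Neu tumors were named. Esr1, Elf5, Stat5a, Zfpm1, Pbx2, Cdh1, Muc1, Cldn1, Cldn4 and Cldn7 were chosen after their values were seen.

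Alternatives were array scaling, filters on missing and extreme values, leaving out wide arrays or single arrays, all groups in 1 fit, the variance model, the treatment of clones, the title number as a block and a permutation t-test modelled on the study's. That test used fewer regroupings than the study (at most 100) and pooled their statistics over all genes. Numbers in sample titles were checked for pairing: over 7 numbers shared by Wnt-1 tumors and metastases, the correlation of same-numbered deviations was -0.06 to 0.30, and over 3 shared by Neu samples -0.01 to 0.10, so they were not taken to pair samples.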

Additional observations from a re-analysis of the deposited data

Results flagged for a closer look

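Of 108 sets of a member and a group of 4 to 10 arrays that were tested, 14 held a sample set apart from the others by Dixon's criterion. The sets did not cover every member in every such group. The nominal rate of about 1 in 20 assumes normal values, whereas these sets share arrays, some of them wide. The share over all genes was not computed, so the count is not read as a trait of the members. For the change from tumor to metastasis, no member passed the test of a difference between the oncogenes.

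In the virgin glands, Foxp1 was at -0.19 in gland 13 with the nearest gland at 0.06, Foxn3 was at 1.21 in gland 13, and Foxn2 was at -0.55 in gland 29. In the hyperplastic glands, Gata3 was at 1.17 in gland 5, Hoxa5 at 1.13 in gland 7 and Sox3 at -0.35 in gland 14.

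The other 8 were Wnt-1 metastases. The wide array 52 held Gata2 at -6.51, Hoxb6 at -6.98 and Sox3 at -4.53, and the wide array 50 held Klf11 at -0.84 and Sox4 at -0.68. Metastasis 42 held Foxn2 at -2.11 and Tbx6 at -0.59, and metastasis 47 held Sox10 at -0.89. The cause of these values was not tested.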

How the results depend on the processing

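The counts of members that differed stayed within 1.5 times the value given above under most alternatives, and of the values recomputed for named members, 1024 kept direction and side of the threshold, 152 lost the threshold and 1 turned: Klf1 between fat and virgin gland, at 0.0192 after quantile normalization. Quantile normalization moved the median of all genes in that comparison from -0.13 to -0.00122 and the share of higher calls over all genes from 57.4% to 48.0%. Fitted clone by clone, 7 members differed between hyperplastic and virgin gland, 15 between Wnt-1 tumor and hyperplastic gland, and 3 between Wnt-1 metastasis and tumor. The permutation t-test modelled on the study's, at a P under 0.001, called 4, 8 and 16 members for hyperplastic against virgin gland, Wnt-1 tumor against hyperplastic gland and Neu tumor against virgin gland. It called 4 between the metastases and 1 between fat and virgin gland. Over all genes it called 878, 1784, 2371, 660 and 254 in the same order. That threshold is stricter. With all groups in 1 fit, 9 members differed between Wnt-1 metastases and tumors and 11 between fat and virgin gland. Over all genes that fit called 538 and 2436, against 424 and 582 in the main fits, so the rise was not particular to the members. The cause was not tested.

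Single arrays were left out of groups of 5 or fewer only. Leaving out a virgin gland gave 6 to 12 members between hyperplastic and virgin gland and 30 to 32 between Neu tumor and virgin gland. Leaving out a Neu metastasis gave 5 to 7 members between the metastases and 0 between Neu metastasis and tumor, and leaving out a fat sample or virgin gland gave 1 to 9 between them. In the same order, the ranges over all genes were 1271 to 2020, 3930 to 4058, 756 to 943, 2 to 21 and 212 to 999. Adding the tail-vein tumors gave 14 members between the metastases, and 1819 of all genes. Without wide arrays, 2 members differed between Wnt-1 metastases and tumors, and 28 between Wnt-1 and Neu tumors (13 higher and 15 lower). Over all genes 219 and 3803 were called there.

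With the title number as a random block, 7 members differed between Wnt-1 metastases and tumors, and over the 7 shared numbers 0 with a fixed block and 2 without one, an alternative chosen after seeing the data (Hoxa5 differed by 1.25 in both, with an adjusted p of 0.0876 with the block and 0.0403 without); 1 of 7 samples correlated best with its own number. Over all genes these Wnt-1 fits called 495, 69 and 119. For Neu samples the block gave 0 members, as without it. Of the interaction's alternatives, chosen after seeing the data (centred arrays, extreme ratios set missing, wide arrays left out), all called 0 members. The 3 Neu metastases and 3 fat samples limit what these comparisons can detect.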
